A study of Mus musculus with 6 samples.

Results

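The cytosolic ribosomal proteins are the protein subunits of the ribosomes that translate nuclear-encoded mRNA. Their genes were taken by symbol: every probe set of the array whose only gene symbol began with Rpl or Rps and a digit, together with Rpsa and the stalk genes Rplp0, Rplp1 and Rplp2, and without the Rps6k kinases. Rplp1 had no probe set with a single symbol. This gave 101 probe sets of 49 genes, out of 22626 probe sets and 12393 genes tested. Of the 49 genes, 23 encode proteins of the small subunit and 26 proteins of the large subunit by their symbols. One of them, Rps15a-ps6, carries a pseudogene symbol and its probe set was dim, at a mean log2 value of 3.48. A further 102 probe sets had a ribosomal protein symbol among several symbols, so no gene was named from them and they were counted apart.

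Total RNA of skeletal muscle from C57BL/6 mice was measured on Affymetrix expression arrays, in which probe sets of short oligonucleotides read each transcript. The muscle of 3 mice had been injected with an adeno-associated virus (AAV) that encodes mouse TFEB, also named Tcfeb (TFEB overexpression). In the 3 other mice the AAV encoded green fluorescent protein (GFP control). All 6 mice were otherwise wild type and received a virus. The labels give their age as 1 month, but the text of the study calls them adult. Which muscle was taken is not given in the labels. The study's vectors used the CMV promoter, which is not restricted to muscle fibres, so the group names stand for what was delivered. Each mouse gave 1 array. The probe set of Tfeb itself lay at 8.49, 8.47 and 8.58 (log2) in the GFP arrays and at 7.92, 7.68 and 7.61 in the TFEB arrays, a direction opposite to delivery of the gene. No source used here says whether that probe set reads the delivered cDNA, so it checks nothing about the vector. The 13 fast fibre contractile genes listed for a check of the tissue all had mean log2 values between 13.40 and 14.36, at the top of the array's range.

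Ribosomal protein mRNAs are among the most abundant of a cell, and many begin with a run of pyrimidines, the 5′ terminal oligopyrimidine (TOP) tract, through which the kinase complex mTORC1 controls their translation. The proteins assemble with ribosomal RNA in the nucleolus with the help of biogenesis factors and are made in matched amounts. Some have paralogues with a narrower distribution, such as Rpl3l, which is made in skeletal and heart muscle in place of Rpl3. TFEB binds the E-box CACGTG, most strongly within longer palindromes, and is itself held in the cytoplasm by mTORC1.

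The promoters of the member genes carried the features of this gene class, and the E-box CACGTG at about the share of all promoters. Promoters came from RefSeq (GRCm38.p6, 250 bases before to 50 after the start, first start listed) and were found for 42 of the 49 genes. Searched on both strands, CACGTG stood in 3 of the 42 (7.14%), against 7.24% of the promoters of all 27025 genes in the table. The longer TCACGTGA, which contains it, stood in 0 of the 42 and in 1.01% of all. CCGGAAG, the core of ETS factor sites, stood in 21 of the 42 members and in 9.12% of all, GGGCGG in 54.8% and 35.9%, and AAGATGG in 14.3% and 6.48%. A run of at least 5 C or T letters within 10 bases of the start, the letters of a TOP tract, stood in 26 members (61.9%) and in 34.4% of all promoters. Counted as whole runs that reach into these bases, they stood in 31 members (73.8%) and in 45.0% of all, a count added after seeing the data. These matches are letters in a window and no measurement of binding, and 7 of the members have further starts that were not searched. The windows below run from 60 bases before the start to 20 bases after it, on the coding strand. They are those of genes past the threshold below by any probe set (Rpl22l1, Rps25, Rpl13a, Rps24, Rpl22), the last also for its comparison with Rpl22l1. Those of Rpl3l, Rps27l and Rpl41 were picked by hand, and no rule selected them. All measured probe sets of these genes moved the same way, but so did those of other members not shown. Capitals mark GGGCGG or CCGGAAG on either strand and the letters of a run of C and T that lie within 10 bases of the start. Such a run may go on in lower case.
Rpl22l1, chr3:28805448-28805527, plus strand: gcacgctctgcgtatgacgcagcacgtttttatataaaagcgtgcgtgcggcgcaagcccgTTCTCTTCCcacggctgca
Rpl22, chr4:152325666-152325745, plus strand: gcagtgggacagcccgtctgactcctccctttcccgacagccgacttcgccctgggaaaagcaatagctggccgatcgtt
Rpl3l, chr17:24727766-24727845, plus strand: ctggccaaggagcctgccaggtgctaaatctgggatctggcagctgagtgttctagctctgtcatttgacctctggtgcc
Rps25, chr9:44407654-44407733, plus strand: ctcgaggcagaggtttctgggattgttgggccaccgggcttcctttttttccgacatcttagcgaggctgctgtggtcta
Rpl13a, chr7:45128726-45128805, minus strand: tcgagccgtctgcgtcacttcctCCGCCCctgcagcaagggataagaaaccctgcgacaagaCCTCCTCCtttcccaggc
Rps24, chr14:24490618-24490697, plus strand: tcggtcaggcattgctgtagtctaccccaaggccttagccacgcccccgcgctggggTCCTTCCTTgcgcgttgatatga
Rps27l, chr9:66946026-66946105, plus strand: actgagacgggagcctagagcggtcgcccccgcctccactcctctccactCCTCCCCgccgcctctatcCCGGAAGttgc
Rpl41, chr10:128549149-128549228, minus strand: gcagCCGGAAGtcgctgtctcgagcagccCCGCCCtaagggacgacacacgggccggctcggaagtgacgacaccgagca
Taken whole, the longest run that reaches within 10 bases of the start is 10 pyrimidines in Rpl22l1, 14 in Rpl13a and in Rps25, 9 in Rps24 and in Rps27l, 5 in Rpl3l, 4 in Rpl22 and 3 in Rpl41. In Rps25 and Rps27l the run lies before the start listed.

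The comparison between the groups asks which ribosomal protein transcripts differ in muscle that received TFEB. Values are log2 values of a probe set, and each difference is TFEB overexpression minus GFP control with its SE (standard error, 3 arrays in each group). A probe set passed the threshold where its limma adjusted p was under 0.05 and its fold was 1.5 or more. Ribosomal protein transcripts moved little. Of the 101 probe sets, 5 passed (4.95%), 3 of them higher and 2 lower, against 13.6% of all probe sets on the array, 7.51% higher and 6.11% lower. By adjusted p alone 19 passed (18.8%), 10 higher and 9 lower, against 32.6% of all, 14.5% higher and 18.1% lower. The other 82 did not pass. The median difference was -0.03 over the member probe sets and -0.06 over all probe sets. The differences of the members ran from -0.82 to 0.75 with an SD of 0.25, against an SD of 0.50 over all probe sets. A difference of at most 0.25 in either direction was seen in 80.2% of the member probe sets and in 54.8% of all. The SE of the members ran from 0.062 to 0.20, so a 1.5-fold change, 0.585 on the log2 scale, was large against it.

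**Figure D1:**
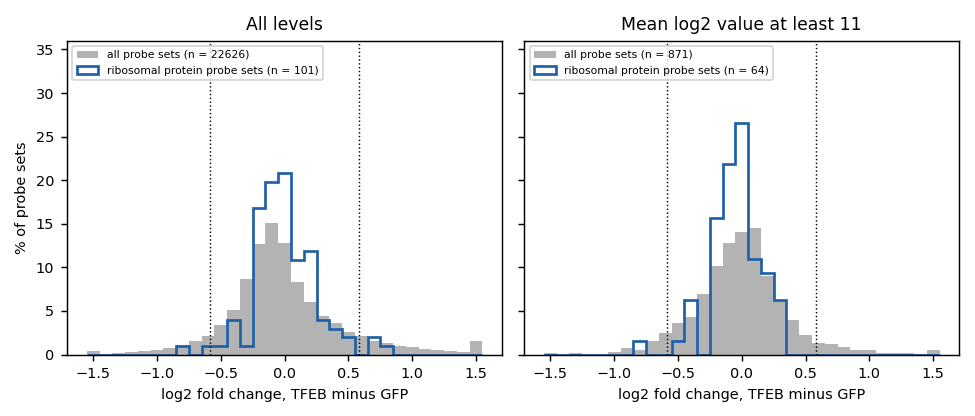
Share of probe sets (%, vertical axis) in bins of the log2 fold change of TFEB overexpression minus GFP control (horizontal axis, values beyond 1.5 drawn in the outermost bins), for all probe sets (grey) and ribosomal protein probe sets (blue outline), at all levels on the left and at a mean log2 value of at least 11 on the right. Dotted lines mark a fold of 1.5, and 80.2% of the member probe sets lie within 0.25 of 0 against 54.8% of all.

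Counted by gene, with the probe set of highest mean for each, 1 of the 49 genes was higher (Rps25) and 1 lower (Rpl22l1). This is 4.08%, against 13.5% of all genes, 8.62% higher and 4.9% lower. By adjusted p alone 4 genes were higher (Rps25, Rps4l, Rpl41 and Rpsa) and 5 lower (Rpl22l1, Rpl3l, Rps27l, Rpl4 and Rps18), together 18.4%, against 33.6% of all genes, 16.8% higher and 16.8% lower. Of these 9 calls by adjusted p, those of Rpl41, Rpsa, Rps27l and Rps18 were lost under some alternatives, as given with each gene. Of the 23 small subunit genes 5 passed by adjusted p and of the 26 large subunit genes 4, with median differences of -0.08 and -0.05. The median over the 49 genes was -0.06, and that over all genes -0.05.

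Ribosomal protein probe sets are bright, and bright probe sets can respond less to a change, so the counts were also read among probe sets of like brightness. The median of the member probe sets was 11.73 and that of all probe sets 6.52. Of the 64 members at a mean of at least 11, 1 passed the threshold (1.56%). By adjusted p 11 of the 64 passed (17.2%), 3 higher and 8 lower. Among all 871 probe sets at that level the shares were 10.1% and 36.6%, the latter made of 138 higher and 181 lower. Of the 37 members under 11, 4 passed the threshold (10.8%, against 13.8% of all under 11). By adjusted p 8 of the 37 passed (21.6%, against 32.4%), 7 higher and 1 lower. Of all probe sets under 11, 3135 were higher and 3914 lower by adjusted p. The members that passed by adjusted p thus leaned lower among bright probe sets and higher among dimmer ones. Of the 102 probe sets with several symbols, 2 were higher and 3 lower (4.9%), and their median was -0.05 with a range of -1.25 to 1.05. By adjusted p 4 of these 102 were higher and 17 lower (20.6%, against 32.6% of all probe sets), so this set leaned lower.

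**Figure D2:**
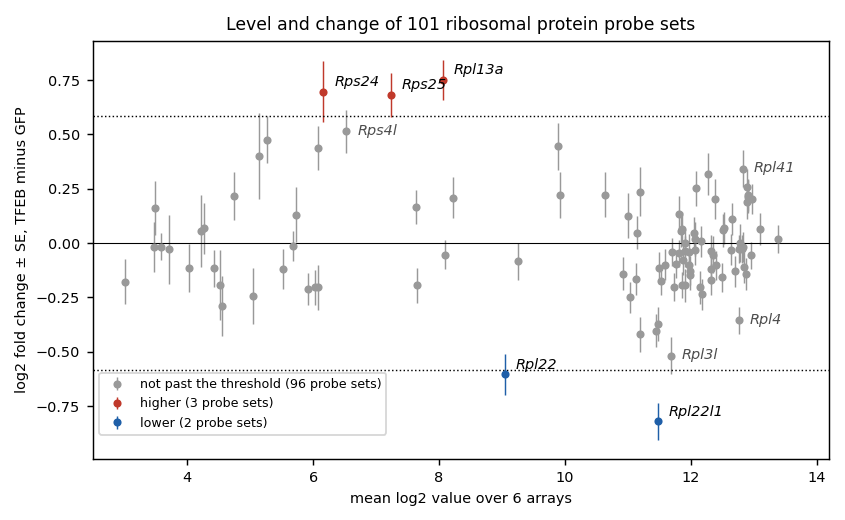
Log2 fold change of TFEB overexpression minus GFP control with its standard error (vertical axis) against the mean log2 value over the 6 arrays (horizontal axis) for the 101 ribosomal protein probe sets, with those past the threshold in colour and dotted lines at a fold of 1.5. Of the 5 past the threshold, only that of Rpl22l1 has a mean of at least 11.

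Arrays within a group stood close together for these genes. No member probe set differed over 2-fold between any 2 arrays of a group, and 1 did between arrays of different groups, GFP control replicate 1 and TFEB overexpression replicate 1. Over the whole array, GFP control replicate 2 differed over 2-fold from the other GFP arrays at 844 and 725 probe sets, whereas those 2 differed from each other at 87 and the TFEB arrays from each other at 45 to 101. The mean deviation of the 101 members from their own means was 0.00056, 0.0050 and 0.0030 in GFP arrays 1 to 3, and 0.013, -0.069 and 0.048 in TFEB arrays 1 to 3. Members differ in sign, so such a mean can lie near 0 whatever single members do. The largest difference of a member within a group was 0.75, between GFP control replicates 2 and 3, and in the other within-group pairs it was 0.53 to 0.60. Without GFP control replicate 2, 6 member probe sets passed the threshold (5.94%) against 18.7% of all. Without GFP control replicate 1, 3 passed (2.97%) against 11.5% of all. By adjusted p alone 11 member probe sets passed when GFP control replicate 1 or 3 or TFEB overexpression replicate 3 was left out, each time 10.9% of the members against 19.0% to 20.5% of all. Without GFP control replicate 2 it was 16.8% against 39.5%, and without TFEB overexpression replicate 1 it was 12.9% against 24%. The shares came closest without TFEB overexpression replicate 2, where 20 members passed (19.8%) against 23.8% of all.

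Markers of other cell types moved with the groups. Of 11 fibroblast markers 8 passed the threshold higher, and their mean level was 9.16 to 9.34 under GFP and 10.48 to 10.86 under TFEB. Of 10 endothelial markers 6 were higher, and of 10 myoblast and satellite cell markers 4. The mean level of 16 macrophage markers was 7.12 to 9.38 under GFP, highest in replicate 2, and 8.58 to 9.42 under TFEB, with 1 marker higher. Of 14 proliferation markers 1 was higher, and of 11 lymphocyte, 3 erythroid, 4 adipocyte and 4 Schwann cell markers 0 passed the threshold, although by limma adjusted p alone 1 adipocyte marker was higher and 1 Schwann cell marker lower. At an unadjusted limma p under 0.05 the lymphocyte, erythroid, adipocyte and Schwann cell lists had 0, 0, 3 and 2 markers. All 14 proliferation markers differed upward, with a list median of 0.76 and 6 at an unadjusted p under 0.05. Of the 16 macrophage markers 15 differed upward, with a list median of 1.2 and 4 at that p. The mean of the 18S ribosomal RNA control probe sets was also lower in the TFEB arrays, at 11.16, 11.47 and 11.81 against 12.33, 12.01 and 12.45. The part of other cells and of RNA quality in the values of the ribosomal protein genes was not tested. In bulk muscle, fewer cells of a type and less RNA per cell cannot be told apart.

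**Figure D3:**
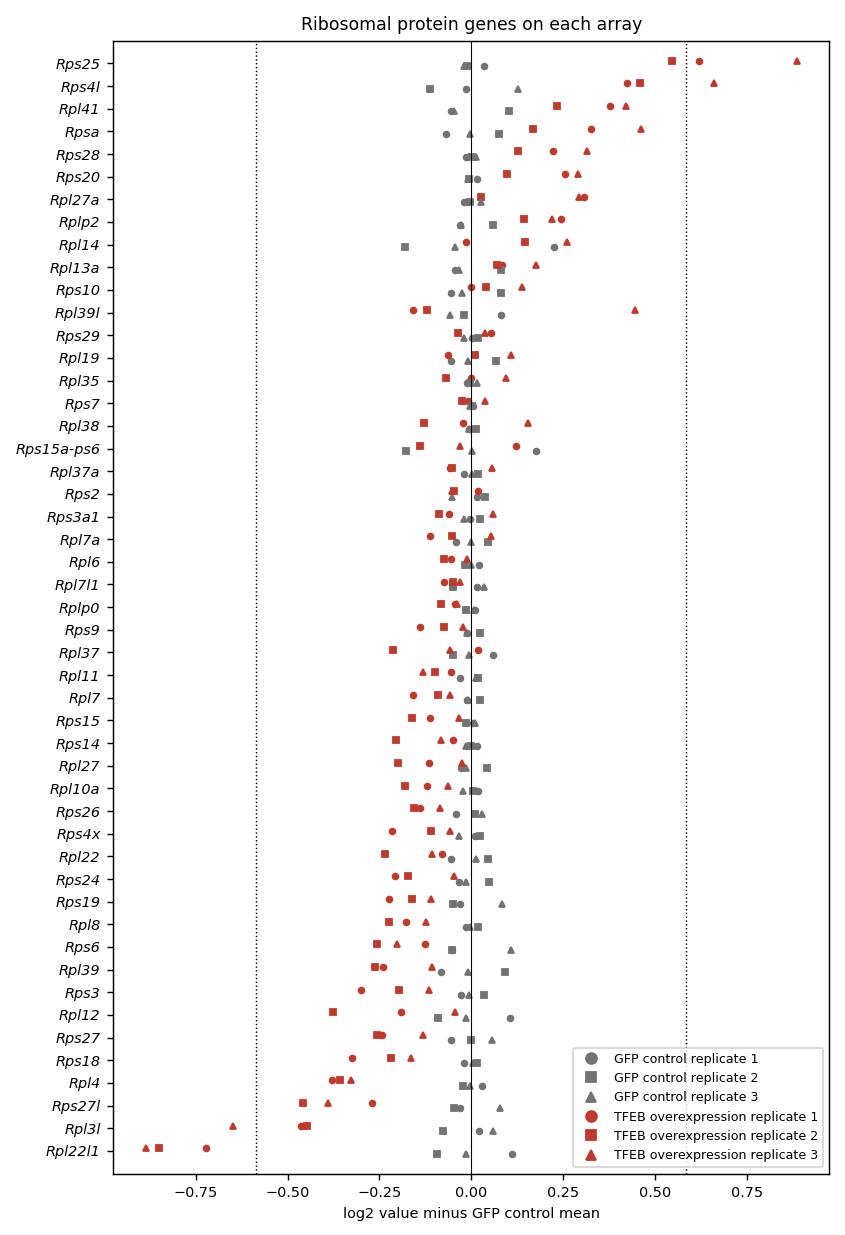
Log2 value on each of the 6 arrays minus the mean of the GFP arrays (horizontal axis) for the 49 ribosomal protein genes, each by its probe set of highest mean and ordered by the difference between the groups, with GFP in grey, TFEB in red, one marker shape per replicate number and dotted lines at a fold of 1.5. Rps25 stands at the top and Rpl22l1 at the bottom, and most other genes lie within 0.25 of 0.

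The paralogues of ribosomal protein genes held several of the differences. By the probe set of highest mean, 4 of the 6 variant genes measured passed by adjusted p, and 5 of the 43 other genes, beside the 33.6% of all genes. The median size of the difference, whatever its sign, was 0.44 in the 6 variants and 0.12 in the 43 others. The 6 genes had been listed with earlier results of these data known, so these counts are a description.

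Rpl22l1 encodes a protein of the large subunit closely related to Rpl22. Its probe set read 11.996, 11.793 and 11.872 in the GFP arrays and 11.165, 11.037 and 11.001 in the TFEB arrays. All TFEB arrays lay well under all GFP arrays. The difference was -0.82 ± 0.085 (SE), a 1.76-fold lower value, with a limma adjusted p of 0.0014. It passed the threshold without each array in turn, at -0.87 to -0.76.

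Rpl22 itself, the usual large subunit protein, was read by 2 probe sets that differed in size. The brighter one read 10.929, 11.028 and 10.996 in the GFP arrays and 10.904, 10.751 and 10.878 in the TFEB arrays, a difference of -0.14 ± 0.074 (adjusted p = 0.19). The other read 9.44, 9.19 and 9.40 in the GFP arrays and 8.81, 8.63 and 8.77 in the TFEB arrays. Both were lower in every TFEB array than in every GFP array, but only the second passed the threshold, at -0.60 ± 0.094 (adjusted p = 0.0047). Its fold was close to 1.5, and without GFP control replicate 1, GFP control replicate 3 or TFEB overexpression replicate 2 it no longer reached that fold, at -0.56, -0.58 and -0.55.

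Rpl3l, the paralogue found in striated muscle, was lower too. Its probe set read 11.96, 11.86 and 12.00 in the GFP arrays and 11.48, 11.50 and 11.29 in the TFEB arrays. The groups did not overlap. The difference was -0.52 ± 0.085 (adjusted p = 0.0056), a 1.43-fold lower value that passed by adjusted p and stayed under the 1.5-fold limit. Rpl3, which it resembles, had no probe set with a single symbol, so no balance between them was computed.

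Rps27l, a paralogue of the small subunit gene Rps27 and a known target of p53, was read by 3 probe sets that moved together. The brightest read 11.64, 11.62 and 11.75 in the GFP arrays and 11.40, 11.21 and 11.28 in the TFEB arrays, with no overlap. The differences of the 3 were -0.37 ± 0.080, -0.40 ± 0.078 and -0.42 ± 0.081, with adjusted p of 0.014, 0.010 and 0.010, and none reached 1.5-fold. For the brightest the adjusted p was 0.055 without GFP control replicate 3 and 0.053 once TFEB overexpression replicate 3 was left out. Rps27 went from a mean of 6.03 to one of 5.82, a difference of -0.21 ± 0.072 that did not pass (adjusted p = 0.065).

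Rps4l, a paralogue of the X-linked small subunit gene Rps4x, was the variant that moved up. Its probe set read 6.26, 6.16 and 6.40 in the GFP arrays and 6.69, 6.73 and 6.93 in the TFEB arrays. All TFEB arrays lay over all GFP arrays, by 0.51 ± 0.099 (adjusted p = 0.010), which is 1.43-fold and under the limit. The brighter probe set of Rps4x differed by -0.13 ± 0.072 (adjusted p = 0.21). The 2 remaining variants did not pass. Rpl39l, a paralogue known from the testis, differed by 0.06 ± 0.17 (adjusted p = 0.82), and its sign turned without TFEB overexpression replicate 3, at -0.14. Rpl7l1, a nucleolar paralogue of Rpl7, differed by -0.05 ± 0.065 at its brighter probe set and by 0.17 ± 0.078 at the other, with adjusted p of 0.56 and 0.15.

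The balance within a pair was tested on the log2 value of the variant minus that of the usual gene on each array, by an exact two-sided permutation test, in which 3 against 3 arrays cannot go below p = 0.10. Each gene entered by its probe set of highest mean. For Rpl22l1 against Rpl22 the balance shifted by -0.68, and for Rps4l against Rps4x by 0.64. The Rpl22 probe set used differed by -0.14, and the other one of that gene by -0.60, much nearer to Rpl22l1. The balance against that other probe set was not computed and would have shifted less. In both pairs the groups did not overlap, and both gave p = 0.10 by the exact test, 0.25 after adjustment over the 5 pairs. For Rpl39l against Rpl39 the shift was 0.26 (exact p = 0.30), for Rps27l against Rps27 it was -0.16 (exact p = 0.20), and for Rpl7l1 against Rpl7 it was 0.05 (exact p = 0.50), with overlap in all 3 pairs. Several of these probe sets were dim. Rps27, Rpl39, Rpl39l and Rps4l had means of 5.93, 6.03, 4.22 and 6.53, against a median of 11.73 over the member probe sets. How well probe sets at such levels follow their genes was not tested.

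**Figure D4:**
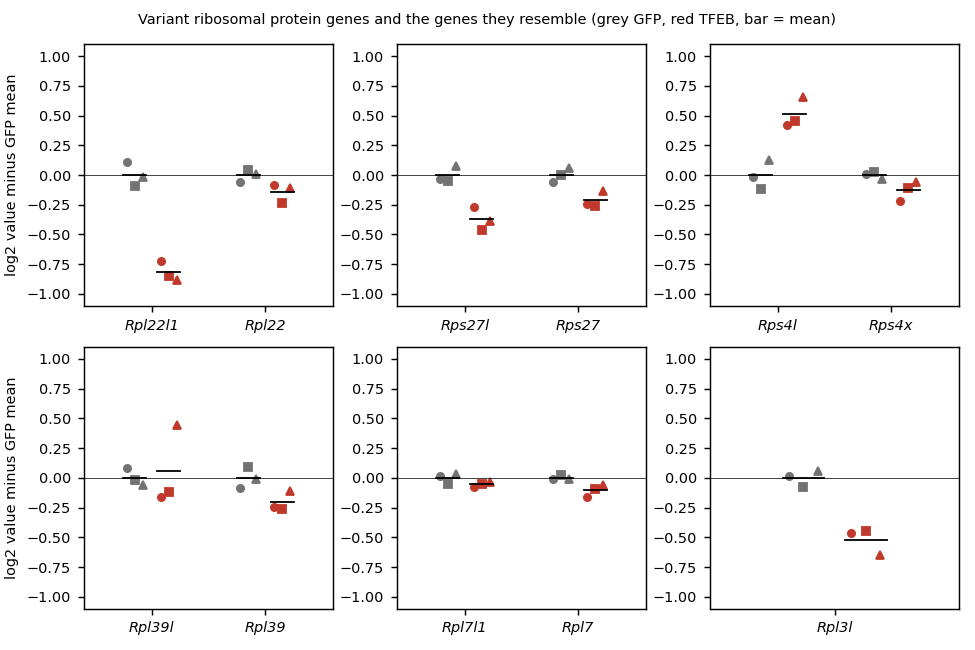
Log2 value on each array minus the mean of the GFP arrays (vertical axis) for 6 variant ribosomal protein genes and, where measured, the usual gene beside them, with GFP in grey, TFEB in red, bars at the group means and one marker shape per replicate number. Rpl22l1 differed by -0.82 and Rpl22 by -0.14, and Rps4l by 0.51 and Rps4x by -0.13. Each gene is drawn by its probe set of highest mean, and the other probe set of Rpl22, not drawn, differed by -0.60.

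Outside the variants, Rps25 was the only gene to pass the threshold by its probe set of highest mean. It encodes a small subunit protein needed by some viral internal ribosome entry sites. Its 1 probe set, at a mean of 7.24, was dim beside the median of 11.73 over the member probe sets. It read 6.93, 6.88 and 6.88 in the GFP arrays and 7.52, 7.44 and 7.78 in the TFEB arrays. All TFEB arrays lay over all GFP arrays, with replicate 3 the highest. The difference was 0.68 ± 0.10 (adjusted p = 0.0040), 1.61-fold. Without that replicate it was 0.58 with an adjusted p of 0.0100, just under the 1.5-fold limit.

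In Rpl13a and Rps24 a dimmer probe set passed the threshold while brighter ones of the same gene did not. Rpl13a, a large subunit protein also known from the control of inflammatory mRNA, was read by 4 probe sets. The dimmest read 7.66, 7.80 and 7.61 in the GFP arrays and 8.35, 8.39 and 8.57 in the TFEB arrays, a difference of 0.75 ± 0.092 (adjusted p = 0.0023). The next, at 9.55 to 9.82 and 10.02 to 10.27, differed by 0.44 ± 0.11 (adjusted p = 0.021). The 2 brightest differed by 0.11 ± 0.073 and -0.05 ± 0.084 and did not pass, at adjusted p of 0.28 and 0.65. The difference thus lay in the 2 dimmer probe sets of the gene.

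Rps24, a small subunit protein with alternatively spliced ends, was read by 6 probe sets. One of the 2 dimmest read 5.56, 5.80 and 6.09 in the GFP arrays and 6.59, 6.40 and 6.54 in the TFEB arrays, a difference of 0.70 ± 0.14 (adjusted p = 0.012). The groups did not overlap, although the GFP arrays were spread over 0.53. Without GFP control replicate 1 the difference was 0.57 and under the 1.5-fold limit. The other 5 probe sets of Rps24 differed by -0.29 to -0.10 and none passed. No source used here says which part of the transcripts each probe set reads.

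Such disagreement was frequent. Of the 49 genes, 26 had 1 probe set and 23 had 2 to 6. Of these 23, 7 had all their probe sets on the same side of 0 and 16 on both sides. Probe sets past the threshold in opposite directions were seen in 0 genes. Many of these probe sets have the suffix _x or _s, which marks probes shared with other sequences, and ribosomal protein genes have many processed pseudogenes. Of the 5 member probe sets past the threshold, only that of Rpl22 has such a suffix. The part of cross-hybridisation in these values was not tested.

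Among the genes with several probe sets on the same side, Rpl41 and Rps28 were higher in the TFEB arrays. Rpl41 encodes the shortest protein of the ribosome. Its brightest probe set read 12.60, 12.76 and 12.61 in the GFP arrays and 13.03, 12.89 and 13.08 in the TFEB arrays. Its 4 probe sets differed by 0.20 to 0.48, and 3 of them passed by adjusted p, at 0.023, 0.020 and 0.018. No TFEB array lay under a GFP array in any of the 4. The brightest no longer passed with the replicate block (adjusted p = 0.064) or by an equal-variance t-test in place of limma (0.052). It also did not pass with GFP control replicate 1 or 3 or TFEB overexpression replicate 1 or 3 left out (0.069 to 0.081). Rps28, of the small subunit, differed by 0.22, 0.26 and 0.25 at its 3 probe sets, and 1 of them passed, with adjusted p of 0.061, 0.048 and 0.053.

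Single proteins of known further function moved by small amounts. Rpsa, the small subunit protein also described as a laminin receptor precursor, read 12.05, 12.19 and 12.12 in the GFP arrays and 12.45, 12.29 and 12.58 in the TFEB arrays. It was higher by 0.32 ± 0.095 (adjusted p = 0.042), and its second probe set, at a mean of 3.01, differed by -0.18 (adjusted p = 0.23). The call of Rpsa was lost with equal medians (adjusted p = 0.078), by the equal-variance t-test (0.087) and with the replicate block (0.081). It was also lost with GFP control replicate 1 or 3 or TFEB overexpression replicate 1 or 3 left out (0.10 to 0.12). By the mean of its 2 probe sets the difference was 0.07 (adjusted p = 0.53). Rpl4, which lines the exit tunnel of the large subunit, read 12.97, 12.92 and 12.94 in the GFP arrays and 12.56, 12.58 and 12.62 in the TFEB arrays. The arrays of each group were nearly equal for Rpl4, and the difference was -0.35 ± 0.063 (adjusted p = 0.0074). Rps18, of the head of the small subunit, was lower by its brightest probe set at -0.24 ± 0.071 (adjusted p = 0.044), while its other 5 differed by -0.19 to 0.16 and did not pass. The call was lost without any one of the arrays (adjusted p = 0.066 to 0.12), with the replicate block (0.080) and with the fast fibre genes made equal (0.054). With quantile normalization repeated its adjusted p was 0.050, and by the mean of its probe sets 0.47.

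The proteins of the stalk, which recruits elongation factors, did not pass. Rplp0, often taken as a reference gene, read 12.99, 12.96 and 12.98 in the GFP arrays and 12.93, 12.89 and 12.94 in the TFEB arrays, a difference of -0.06 ± 0.062 (adjusted p = 0.52). Rplp2 differed by 0.20 ± 0.069 (adjusted p = 0.063), with every TFEB array over every GFP array. Rps6, whose protein is phosphorylated by S6 kinase downstream of mTORC1, differed by -0.20 ± 0.079 and 0.07 ± 0.12 at its 2 probe sets (adjusted p = 0.10 and 0.68). Rpl11, which binds the p53 regulator Mdm2 outside the ribosome, differed by -0.10 ± 0.064 (adjusted p = 0.29).

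The 3 members with CACGTG in the promoter window were Rpl13a, Rpl14 and Rpl19. By the probe set of highest mean they differed by 0.11, 0.13 and 0.02, with adjusted p of 0.28, 0.45 and 0.87. None passed, although a dimmer probe set of Rpl13a did, as given above.

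The other genes of the translation apparatus were counted from lists, each gene by its probe set of highest mean, beside the 13.5% of all genes past the threshold and 33.6% by adjusted p. Ribosome biogenesis factors, which process ribosomal RNA and assemble the subunits, leaned lower. Of 72 measured, 6 were lower and 1 higher at the threshold, and by adjusted p 26 were lower and 2 higher, with a median of -0.19. Their mean deviation was 0.061 to 0.11 under GFP and -0.13 to -0.063 under TFEB, whereas that of the ribosomal protein probe sets overlapped between the groups. Of the lower ones, Tcof1, the nucleolar protein treacle, differed by -0.89 ± 0.14 (adjusted p = 0.0044). Pno1 and Bccip, which act in subunit assembly, differed by -0.66 each, and Nol11, a factor of the small subunit processome, by -0.63. Rrp1, a nucleolar protein of large subunit assembly, was the one higher, at 0.75 ± 0.066 (adjusted p = 0.00094). Taken by the mean of its probe sets, Rrp1 differed by 0.28 and did not reach the fold limit.

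Other transcripts with a TOP tract, among them factors outside the ribosome, were lower in 7 and higher in 2 of 15 by adjusted p, with 0 past the threshold and a median of -0.28. At an unadjusted limma p under 0.05 there were 11. Eif3h and Eif3e, subunits of the initiation factor that binds the small subunit, differed by -0.53 ± 0.068 and -0.47 ± 0.066 (adjusted p = 0.0026 and 0.0035). Both depended on the probe set used. By the mean of its probe sets Eif3h differed by -0.16 (limma adjusted p = 0.12). Over the alternatives Eif3e ran from -0.62, past the threshold by its probe set of smallest p, to -0.20. Of 8 elongation factor genes, 1 was higher at the threshold, and 1 higher and 3 lower by adjusted p. The one higher was Eef1a1, the factor that brings aminoacyl-tRNA, which read 11.95, 12.54 and 12.05 in the GFP arrays and 12.79, 12.97 and 13.07 in the TFEB arrays. Its difference was 0.76 ± 0.17 (adjusted p = 0.015), and the adjusted p rose to 0.057 when GFP control replicate 3 was left out and to 0.060 when TFEB overexpression replicate 3 was. Fau, which encodes the small subunit protein eS30 fused to a ubiquitin-like domain and lies outside the symbol rule, differed by 0.28 ± 0.11 (adjusted p = 0.090).

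Of 28 initiation factor genes, 5 were higher and 6 lower by adjusted p and 0 passed the threshold, with 16 at an unadjusted limma p under 0.05. Eif4e3, a cap-binding protein, and Eif2s2, the beta subunit of eIF2, were those of smallest p, at -0.56 and -0.52. Eif2s2 passed the threshold by its probe set of smallest p, at -1.09, and Eif4e3 by the mean of its probe sets, at -0.60. Of 21 genes of RNA polymerase I and its regulators, 2 were higher and 7 lower by adjusted p and 0 at the threshold, with 11 at an unadjusted p under 0.05. Taf1b, of the promoter selectivity factor, and Mxd1, a MYC antagonist, were those of smallest p, at -0.54 and -0.39. Of 16 genes of mTORC1 and translation control, 1 was higher and 6 lower by adjusted p. At the threshold Tsc1, the inhibitor of mTORC1 with Tsc2, was lower by -0.92 ± 0.11 (adjusted p = 0.0021) and Eif2ak3, the kinase PERK, higher by 0.72 ± 0.12 (adjusted p = 0.0054). Neither passed the threshold by the mean of its probe sets. There Tsc1 differed by -0.51 (limma adjusted p = 0.0060) and Eif2ak3 by 0.13 (limma adjusted p = 0.23).

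The mitochondrial ribosomal proteins, whose genes form the other ribosome of the cell, were also mostly little changed. Of 74 genes, 1 was higher and 1 lower at the threshold (2.7%), and 9 were higher and 12 lower by adjusted p (28.4%), with a median of -0.05. Differences of at most 0.25 were seen in 68.9% of them, in 83.7% of the cytosolic ribosomal protein genes and in 53.8% of all genes. The 13 fast fibre contractile genes, shown for their brightness, had 0 past the threshold and 2 at an unadjusted limma p under 0.05. Both also passed by limma adjusted p, Myh1 higher at 0.45 (adjusted p = 0.011) and Actn3 lower at -0.27 (adjusted p = 0.020).

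**Figure D5:**
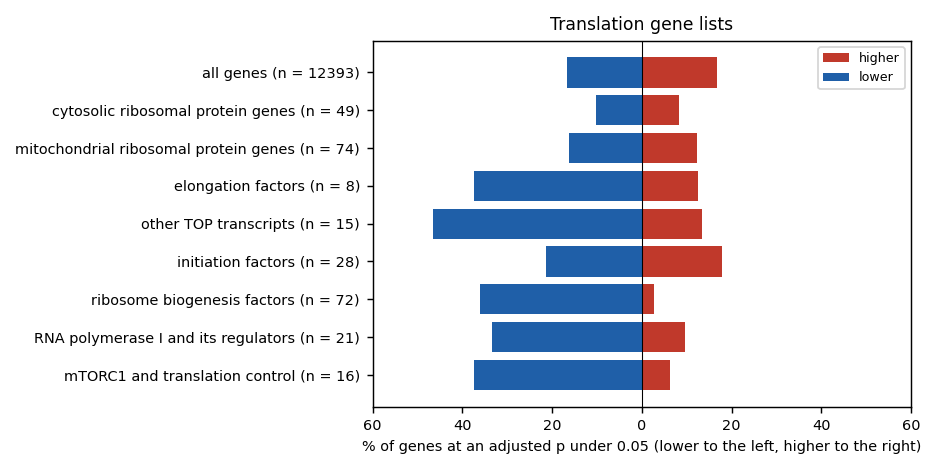
Share of genes (%, horizontal axis) at a limma adjusted p under 0.05, lower in TFEB overexpression to the left and higher to the right, for all genes, the cytosolic and mitochondrial ribosomal protein genes and 6 lists of other translation genes (vertical axis, with the number of genes measured). Of the cytosolic ribosomal protein genes 18.4% passed, against 33.6% of all genes.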

How the data were processed

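Total RNA of 6 muscles was measured on Affymetrix arrays, 1 mouse per array. The deposited values are log2 values per probe set, made by the authors with affy and RMA per the labels (versions not stated), which corrects background, equalises the arrays' distributions and summarises probes. A shift of most transcripts in one direction would be partly removed, and changes at both ends of the brightness range are compressed. Depth does not apply to arrays, and their number limits the precision.

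Of 22690 probe sets, 64 controls were left out. Symbols came from GEO's platform annotation: 20380 probe sets had 1 symbol, 691 several and 1555 none. The identifiers of all 49 member genes have an entry in the RefSeq table of GRCm38.p6. The comparison used limma 3.58.1 under R 4.3.3 (lmFit, then eBayes, two-sided) and Benjamini-Hochberg adjustment over 22626 probe sets. An adjusted p of a single gene is from this fit, except where an alternative or a left-out array is named with it. The fit was tested on simulated data. The test and the 1.5-fold limit with an adjusted p under 0.05 are not taken from array methods of the study, which were not among the sources; the limits stand in the legend to its list of genes.

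Members, lists, paralogue pairs and tests were chosen with earlier results of these data known. Named are the variants and the genes they resemble, genes past the threshold by any probe set, Rpsa, Rplp0, Rplp2, Rps6 and Rpl11, the extremes of each subunit and, of each other list, up to 4 genes past the threshold in the prevailing direction and 2 in the other, or the 2 of smallest p. Rpl4, Rps18, Rps28, Rpl14, Rpl19 and Rps15a-ps6 were named after their values were seen. Alternatives changed the scaling, the brightness filter, the array weights, the spread prior, the test, the replicate block, the probe set per gene, the type of probe set, the fold limit and the arrays left out. A comparison of protein sequences within pairs was planned and not run.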

Additional observations from a re-analysis of the deposited data

How the results depend on the processing

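The counts at the threshold are small, so single probe sets move them. With arrays shifted to equal medians, which moves the median of all probe sets by -0.069, the member medians were -0.10 over probe sets and -0.12 over genes, and 2 genes were lower (Rpl3l joined at -0.59). With the fast fibre genes made equal, 1 probe set was lower. Taking each gene by its smallest p gave 3 genes higher and 2 lower. With plain _at probe sets alone, 0 probe sets and 0 genes were lower and 2 genes were higher. With no fold limit, 10 probe sets were higher and 9 lower, and 4 genes higher and 5 lower. Chosen after seeing the data, the several-symbol probe sets gave 5 higher and 5 lower when added, and members at a mean of at least 11 gave 0 higher and 1 lower. Without each array in turn, 2 to 4 probe sets were higher and 1 to 2 lower, 0 to 1 genes higher and 1 gene lower, with medians of -0.061 to -0.017 over probe sets and -0.082 to -0.042 over genes.

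Signs turned for Rpl39l with equal medians (-0.014) and without TFEB overexpression replicate 3 (-0.14, against up to 0.16 without the other arrays), for Rpl7l1 by the mean of its probe sets (0.057) and by that of smallest p (0.17), for Rps24 by the probe set of smallest p (0.70) and among plain _at probe sets (0.70), and for Myh1 among plain _at probe sets (-0.20). Tcof1 fell under the fold limit there, at -0.46. By the mean of a gene's probe sets Rrp1 (0.28), Eif2ak3 (0.13) and Tsc1 (-0.51) no longer passed, and by the equal-variance t-test Eef1a1 did not (adjusted p = 0.069). The cause of these differences was not tested, beyond the other probe sets used. Rpl22l1 passed in all 17 alternatives that could give a value, and Rps25 in 17 of 18.

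No label says that the replicate numbers pair the arrays. The deviations of same-numbered arrays correlated across probe sets at 0.42, 0.17 and -0.23, and those of differently numbered ones at -0.44 to 0.33. With 3 arrays per group such correlations cannot settle whether arrays were paired. With the replicate block 3 probe sets were higher and 2 lower, with medians of -0.031 over probe sets and -0.056 over genes, as without it, and the adjusted p of Rpl41 (0.064), Rpsa (0.081) and Rps18 (0.080) no longer passed. With 3 arrays per group and no probe-level files used here, dim probe sets and small differences are the least precise.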
